A study of Mus musculus with 54 samples.

Results

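The basement membrane genes taken up here were Col4a1, Col4a2, Lama1, Lamb1, Lamb2, Lamc1, Nid1, Nid2, Hspg2 and Sparc, which were chosen by symbol, and all 10 had a row among the 25149 genes of the count and TPM tables. They were followed across 54 RNA-seq libraries, each made from a single microdissected side of a mouse ovarian follicle. The secondary follicles came from female CD-1 mice at an age of 14 to 16 days. They grew in alginate beads, a gel that lets them stay round, for 8 days, and then spent 12 h in medium with FBS, EGF and recombinant FSH, either without hCG or with hCG, an analog of luteinizing hormone that induces ovulation. Without hCG, follicles were cut where the wall was predicted to open, which gave 15 libraries of the putative unruptured side and 14 of the putative ruptured side. Post-hCG, the opened part was cut from the rest, which gave 12 libraries of the unruptured side and 13 of the ruptured side. No genotype or transgene is given, and every group shared the growth medium and the culture. According to the labels the tissue was the cumulus-oocyte complex, but the methods of the study have that complex removed. The labels do not say which libraries came from 1 follicle, 1 mouse or 1 day, so the tests below measure only the spread between these libraries, part of which may be technical.

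A basement membrane is a thin sheet of extracellular matrix in which a network of type IV collagen and a network of laminin are tied together by nidogens and by perlecan. In the ovarian follicle this sheet lies between the granulosa cells, which it encloses, and the theca cells outside it, and it is opened at the rupture site and broken up as the follicle wall turns into a corpus luteum. Both follicle compartments are known to make basement membrane components.

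Total counts per library ran from 1497138 to 2834794, with a median of 2157135, and mitochondrially encoded genes took a mean of 4.12% to 7.38% of them by group. A list of 12 theca and stroma markers differed in its sum between the sides. It was 35.7 to 2791 TPM (putative unruptured), 5.76 to 577 TPM (putative ruptured), 77.9 to 1338 TPM (unruptured) and 3.39 to 55.5 TPM (ruptured). Col3a1 made up most of the mean sum in each group, 499 of 729.6, 95.7 of 161, 308 of 394 and 8.92 of 13.7 TPM. Ptch1, on the same list, differed little, with means of 2.8, 3.12, 2.44 and 1.82 TPM in that order. TPM is a level scaled for transcript length and for the library. Summed oocyte markers reached 158 TPM in replicate 1 of the putative unruptured side and 25.5 TPM in replicate 12 of the putative ruptured side, and at most 10.4 TPM in the others. The 9 endothelial markers summed to between 0.66 and 32.3 TPM, with Cldn5 on top post-hCG, and 6 smooth muscle markers to at most 66.4 TPM, highest in the putative unruptured group. The theca gene Gli1 had no count on the unruptured side, Cyp17a1 had none on the ruptured side, and Amh none on either ruptured side. Gli1 and Amh were near the floor elsewhere too, with group means of at most 0.0487 and 0.112 TPM. Cyp17a1 had group means of at most 2.53 TPM. The granulosa gene Inha had means of 2860 and 8784 TPM on the putative unruptured and putative ruptured sides and 1357 and 1072 TPM post-hCG. Not every granulosa marker followed Inha, and Nr5a2 had means of 24.9 and 60.5 TPM on the putative ruptured and ruptured sides. By the edgeR test described below, 2 of 7 granulosa markers rose with hCG on the unruptured side and 5 fell. On the ruptured side 1 of 7 rose and 5 fell. The 7 immune markers had summed medians of 31.6 and 1.23 TPM and of 14.2 and 0.91 TPM in the order of the Inha means. The column names end in a letter and a number, read here as plate row and column, which the labels do not state. On that reading, libraries with hCG stood in plate rows B to D and those without in rows F to H. Medium and plate row therefore cannot be told apart. Side was largely joined to plate row as well. Row B held only unruptured (8) and row F only putative unruptured sides (10). Row D held only ruptured (8) and row H only putative ruptured sides (9). In these rows side and plate row cannot be told apart either. Row C held 4 unruptured and 5 ruptured sides, and row G held 5 of each putative side.

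By mean TPM, type IV collagen was the most abundant structural member of the set. Col4a1 and Col4a2, whose chains assemble into the main collagen trimer of most basement membranes, lie head to head on chromosome 8. In GRCm38, Col4a1 spans chr8:11198423-11312826 on the minus strand and Col4a2 spans chr8:11312805-11449287 on the plus strand, and their annotated exons share 22 bases. The stretches from 250 bases before to 50 bases after each start site (RefSeq, GRCm38.p6) are shown because the levels of both genes moved together in every group, as described further on, and the capitals mark the 78 bases that both windows hold, each on its own strand.
Col4a1, chr8:11312777-11313076, minus strand: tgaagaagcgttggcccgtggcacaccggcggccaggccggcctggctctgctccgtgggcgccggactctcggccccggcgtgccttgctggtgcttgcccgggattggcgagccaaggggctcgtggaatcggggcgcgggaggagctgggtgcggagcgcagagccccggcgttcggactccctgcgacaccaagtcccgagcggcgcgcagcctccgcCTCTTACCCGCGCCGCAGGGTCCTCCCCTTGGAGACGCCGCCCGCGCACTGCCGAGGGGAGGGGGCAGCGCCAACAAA
Col4a2, chr8:11312555-11312854, plus strand: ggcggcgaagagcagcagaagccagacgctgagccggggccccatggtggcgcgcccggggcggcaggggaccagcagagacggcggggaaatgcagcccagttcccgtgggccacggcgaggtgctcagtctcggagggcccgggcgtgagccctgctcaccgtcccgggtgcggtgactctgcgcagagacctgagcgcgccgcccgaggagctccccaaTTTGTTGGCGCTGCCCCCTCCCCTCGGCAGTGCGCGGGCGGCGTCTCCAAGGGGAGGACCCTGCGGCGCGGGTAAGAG

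The start sites of this pair stood 21 bases apart. A search on both strands for the GC box (GGGCGG), the TATA box (TATAAA) and the letters CCAAT found the GC box at 1 place in the Col4a1 window and at 3 in the Col4a2 window, 1 of them inside the shared stretch, CCAAT at 1 place in each window, and the TATA box in neither, and no match shared letters with another. Of all 32851 promoter windows of the same length, 35.7% held the GC box, 37.4% CCAAT and 13.6% the TATA box. Windows were found for 7 of the 10 genes. The Hspg2 window held the GC box at 5 places and had 70.3% G and C, against a median of 52.7% over all windows, and those of Lamb2 (44.0% G and C) and Sparc (55.3%) held none of the letters searched.

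The first 3 places in the order of mean levels were the same in all groups. Sparc, a matrix glycoprotein that binds collagen and is found in basement membranes without being one of their structural networks, stood first, with means of 1633 ± 459 TPM (putative unruptured, n = 15), 875 ± 246 TPM (putative ruptured, n = 14), 2136 ± 281 TPM (unruptured, n = 12) and 1565 ± 253 TPM (ruptured, n = 13), each with its SD. In TPM, Sparc exceeded Col4a1 in every library, and Col4a1 exceeded Col4a2 in every library. By counts, which are not scaled for length, Col4a2 was above Col4a1 in putative ruptured replicates 3, 8 and 13. These had 188, 61 and 176 counts of Col4a2 and 176, 30 and 160 of Col4a1. Below Col4a2, some neighbours could not be ordered: Hspg2, which encodes perlecan, was above Lamb1 in 13 of 15 putative unruptured libraries, whereas post-hCG Lamb1 was above Hspg2 in 7 of 12 unruptured libraries and in 6 of 13 ruptured libraries. Col4a2 was above Hspg2 in only 6 of 14 putative ruptured libraries. Lamc1 (means of 2.83 to 3.32 TPM), Lama1 (1.77 to 2.13 TPM) and Nid2 (0.322 to 1.64 TPM) were the lowest members except in the ruptured group, where Nid1 (1.94 TPM) stood between Lama1 and Nid2 and was above Nid2 in all 13 libraries.

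The laminin chains were present at unequal levels. A laminin is a trimer of an alpha, a beta and a gamma chain, encoded here by Lama1, by Lamb1 or Lamb2, and by Lamc1. Lamb1 had means of 17.7, 10.7, 33.6 and 20.1 TPM in the putative unruptured, putative ruptured, unruptured and ruptured groups, several times the level of Lamc1, its gamma partner, in each group. Lama1 had 22 to 111 counts in a library and Lamc1 14 to 100, against 1729 to 11138 for Sparc, and Nid2 had a count in 12 of 14 putative ruptured libraries, so the low members carried the larger counting error. The read count per TPM differed up to 1.07-fold among libraries for Lama1 and 1.08-fold for Hspg2, but up to 3.78-fold for Lamb2, 4.06-fold for Lamc1, 4.55-fold for Nid1 and 7.3-fold for Nid2, after scaling for the library. For these last 4, TPM and counts therefore did not carry the same differences between libraries. Smart-Seq2 reads do not mark strand. Of these genes, 437 of 5174 exon bases of Nid2 overlap Rtraf on the other strand, and 143 of 6943 exon bases of Nid1 overlap Gm48682, so their reads cannot be separated there.

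**Figure D1:**
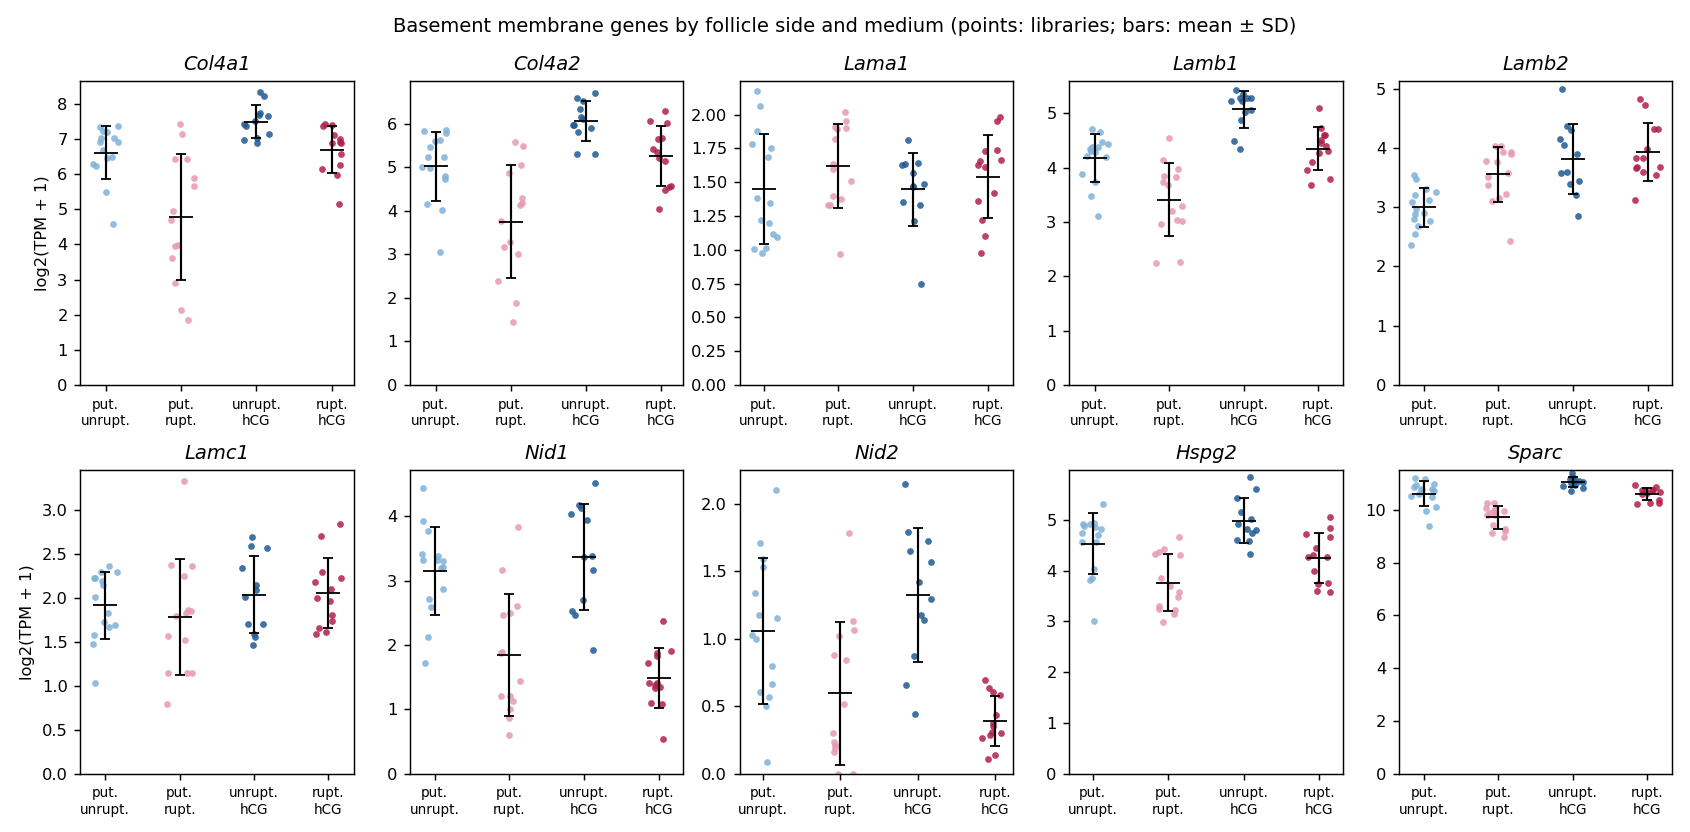
Level of each of the 10 genes as log2(TPM + 1) on the vertical axis, with each axis starting at 0, in the 4 groups on the horizontal axis (put. unrupt. and put. rupt., without hCG, n = 15 and 14, then unrupt. and rupt., post-hCG, n = 12 and 13). Points are libraries and bars are the mean ± SD. Col4a1 spans 2.61 to 169 TPM on the putative ruptured side, and Nid1 has a median of 1.65 TPM on the ruptured side against 9.36 TPM on the unruptured side.

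The first comparison asked how the wall predicted to rupture differed from the opposite wall in medium without hCG. Without hCG, 6 members were lower on the putative ruptured side (Col4a2, Lamb1, Nid1, Nid2, Hspg2 and Sparc), 1 was higher (Lamb2), and 3 did not pass the test (Col4a1, Lama1 and Lamc1). Among all 9063 genes tested, 17.8% passed in either direction, 8.96% lower and 8.84% higher. The median log2 fold change (log2FC, ruptured minus unruptured) over the members was -0.80, against -0.01 over all genes tested. These and the following fold changes come from edgeR's quasi-likelihood test on the counts, with Benjamini-Hochberg adjusted p-values (FDR) over all genes tested and a threshold of 0.05.

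Sparc and Hspg2 had the smallest FDRs among the members that fell. Sparc ranged in the putative unruptured libraries from 663 to 2348 TPM (median 1728) and from 494 to 1234 TPM (median 925) on the putative ruptured side. All 14 putative ruptured libraries were under the median of the putative unruptured side, and the ranges overlapped. The log2FC of Sparc was -0.84 ± 0.15 (SE, FDR = 0.000204). Hspg2 ranged from 7.04 to 38.8 TPM (median 25.6) and from 6.95 to 24.4 TPM (median 11.4), again with all 14 libraries under that median (log2FC -0.76 ± 0.19, FDR = 0.0043).

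The nidogens, which bridge laminin and type IV collagen, were also lower. Nid1 had in the putative unruptured libraries 2.3 to 20.7 TPM (median 8.83) and 0.52 to 13.3 TPM (median 2.19) on the putative ruptured side, where 13 of 14 libraries were under the median of the other side. Its log2FC was -1.29 ± 0.35 (FDR = 0.00877), a 2.44-fold difference. Nid2 had 0.06 to 3.31 TPM (median 1.04) and 0 to 2.45 TPM (median 0.33), a log2FC of -1.14 ± 0.40 (FDR = 0.0415), and lost the call with no filter on low counts (FDR = 0.052), with limma on log2(TPM + 1) (-0.46, adjusted p = 0.111) and in 16 of 29 refits without single libraries. Those were the refits without replicate 4, 6, 7, 8, 9 or 13 of the putative unruptured side or replicate 2, 3, 4, 6, 7, 8, 9, 10, 13 or 14 of the putative ruptured side, with FDRs of 0.0506 to 0.0755.

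The collagen pair was spread widely on the putative ruptured side. Col4a1 ranged in the putative unruptured libraries from 22.9 to 163 TPM (median 119.5) and from 2.61 to 169 TPM (median 27.5) on the putative ruptured side. Of the 14 putative ruptured libraries, 12 were under the median of the other side, and the highest were replicates 1, 12, 11 and 5. These had 169, 141, 85.5 and 84.3 TPM of Col4a1 and theca and stroma sums of 577, 477, 427 and 335 TPM, while no other putative ruptured library exceeded 142 TPM of that sum. The log2FC of Col4a1 was -1.20 ± 0.44 (FDR = 0.0522), so it did not pass, but it passed in refits that left out 1 of these 4 libraries or replicate 1 or 14 of the putative unruptured side (FDRs of 0.0197 to 0.0478). It also passed on log2(TPM + 1) with limma (-1.83, adjusted p = 0.00648), with library totals (FDR = 0.0494) and with all 4 groups in one fit (FDR = 0.00873).

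Col4a2 gave a like difference with less spread. It ranged from 7.32 to 56.6 TPM (median 36.5) and from 1.73 to 46.6 TPM (median 14.6), and its log2FC was -1.03 ± 0.36 (FDR = 0.0415). The call did not hold in 17 of 29 refits, those without replicate 2, 4, 5, 6, 7, 9 or 13 of the putative unruptured side or replicate 2, 3, 4, 6, 7, 8, 9, 10, 13 or 14 of the putative ruptured side (FDRs of 0.0503 to 0.0719). Without both libraries with oocyte markers, Col4a1 passed at a log2FC of -1.50 (FDR = 0.0157).

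The beta chains of laminin moved in opposite directions. Lamb1 ranged in the putative unruptured libraries from 7.59 to 25.1 TPM (median 18.9) and from 3.73 to 22.3 TPM (median 10.4) on the putative ruptured side, with 13 of 14 libraries under the median of the other side (log2FC -0.69 ± 0.19, FDR = 0.0101). Lamb2, the beta chain that replaces Lamb1 in several adult basement membranes, ranged from 4.13 to 10.7 TPM (median 6.84) and from 4.41 to 15.4 TPM (median 11.7), with 13 of 14 libraries above that median (log2FC 0.54 ± 0.14, FDR = 0.00706). Lamb2 also passed with each other scaling and with limma on TPM. Lama1 had medians of 1.54 and 2.06 TPM (log2FC 0.29 ± 0.17, FDR = 0.253), and Lamc1 of 3.02 and 2.51 TPM (log2FC -0.35 ± 0.17, FDR = 0.175). Within plate row G, which holds 5 libraries of each side, no member passed, with log2FCs of -0.77 for Sparc, -0.51 for Hspg2, -0.45 for Nid1 and 0.63 for Lamb2, and 3 of 9068 genes passed in all. Beside these side differences, 5 of 7 granulosa markers tested were higher on the putative ruptured side and none lower. Of the theca and stroma markers, 6 of 9 were lower. The summed immune markers, mostly Lyz2, had medians of 31.6 and 1.23 TPM. The part of these lists in the result was not tested.

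The second comparison asked the same of the wall that had opened and the wall that had not. Post-hCG, 5 members were lower on the ruptured side (Col4a1, Col4a2, Lamb1, Nid1 and Hspg2), 3 were higher (Lama1, Lamb2 and Lamc1), Sparc did not pass, and Nid2 was under the filter on low counts. Of the 8585 genes tested, 21.4% passed in either direction, 11.3% lower and 10% higher. The median log2FC over the 9 members tested was -0.47, against 0.01 over all genes tested. With library totals in place of TMM scaling, which moved the median of all genes to -0.14, Lama1 and Lamc1 no longer passed (log2FCs of 0.30 and 0.20) and Sparc did (log2FC -0.32, FDR = 0.00298).

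Nid1 showed the largest difference of the set. It ranged in the unruptured libraries from 2.81 to 22 TPM (median 9.36) and from 0.46 to 4.2 TPM (median 1.65) on the ruptured side. On CPM, counts scaled to the library with TMM, all 13 ruptured libraries were under the lowest unruptured library, which 0.479% of 10013 genes showed in this direction, whereas the TPM ranges overlapped. The log2FC was -2.28 ± 0.24 (FDR = 4.9e-08), a 4.84-fold difference. Nid2 was not tested, and had in the unruptured libraries 0.36 to 3.43 TPM (median 1.57) and 0.08 to 0.62 TPM (median 0.28) on the ruptured side, where all 13 libraries were under the median of the other side.

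The collagen pair had smaller log2FCs than Nid1. Col4a1 ranged in the unruptured libraries from 118 to 319 TPM (median 174) and from 34.5 to 169 TPM (median 117) on the ruptured side, with a log2FC of -0.59 ± 0.17 (FDR = 0.0108). Every ruptured library had fewer TPM than the median of the unruptured side. Col4a2 ranged from 38.4 to 104 TPM (median 64.7) and from 15.4 to 76.8 TPM (median 39.6), with a log2FC of -0.47 ± 0.16 (FDR = 0.0377). It did not pass in 13 of 25 refits, those without replicate 4, 5, 6, 7, 10 or 12 of the unruptured side or replicate 1, 6, 7, 8, 9, 10 or 11 of the ruptured side (FDRs of 0.05 to 0.0846).

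Hspg2 and Sparc were lower in TPM on the ruptured side. Hspg2 ranged from 19.1 to 56.5 TPM (median 28.3) and from 11 to 32.4 TPM (median 18.3), with a log2FC of -0.50 ± 0.14 (FDR = 0.0122). Sparc ranged from 1684 to 2690 TPM (median 2133) and from 1175 to 1974 TPM (median 1619), with all 13 ruptured libraries under the median of the unruptured side. On counts its log2FC was -0.16 ± 0.09 (FDR = 0.199), and on log2(TPM + 1) with limma it was -0.46 (adjusted p = 0.000599), where the median of all genes also moved, to -0.21.

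Among the laminins, the beta chains again parted. Lamb1 ranged in the unruptured libraries from 19.3 to 42.3 TPM (median 36.5) and from 11.8 to 33.2 TPM (median 20.1) on the ruptured side (log2FC -0.47 ± 0.13, FDR = 0.0108). Lamb2 was higher by counts (log2FC 0.67 ± 0.14, FDR = 0.000532), with all 13 ruptured libraries above the unruptured median of CPM. In TPM it ranged from 6.18 to 30.9 (median 12.5) and from 7.71 to 27.3 (median 13.2), and limma gave a log2FC of 0.11 (adjusted p = 0.714). Lama1 (log2FC 0.45 ± 0.15, FDR = 0.0264) and Lamc1 (log2FC 0.35 ± 0.11, FDR = 0.0203) were also higher by counts and had log2FCs of 0.10 and 0.02 in TPM, where neither passed.

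The number of members that passed differed between fits. With no filter on low counts and with DESeq2, 9 of 10 members passed, 6 of them lower and 3 higher. Fewer passed in some other fits. With all 4 groups in one fit, 4 members passed (Lamb2, Nid1, Nid2 and Hspg2), and within plate row C 3 did (Lamb2, Nid1 and Nid2), where Hspg2 had a log2FC of 0.02. Beside these differences, the summed theca and stroma markers had medians of 351 TPM (unruptured) and 6.74 TPM (ruptured). The summed immune markers, mostly Lyz2 on the unruptured side, had medians of 14.2 and 0.91 TPM. The part of both lists in the result was not tested. In such tissue pieces, fewer cells of a type and less RNA per cell cannot be told apart.

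**Figure D2:**
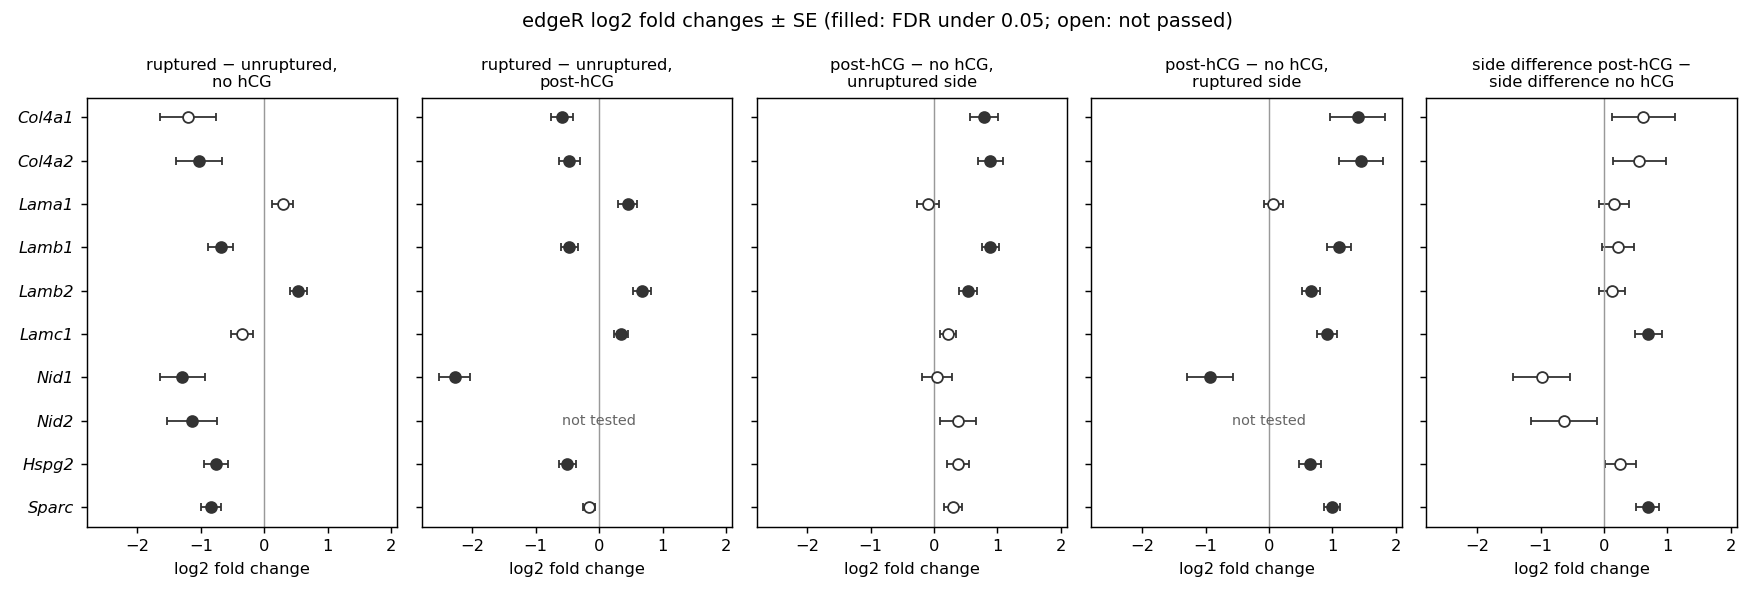
Log2 fold change ± SE from edgeR on the horizontal axis for each of the 10 genes, in 5 panels: ruptured minus unruptured without hCG and post-hCG, post-hCG minus no hCG on the unruptured and ruptured sides, and the difference between the first pair. Filled points have an FDR under 0.05, open points do not, and Nid2 was not tested in 2 panels. Lamb2 lies right of 0 in the first 4 panels, and Nid1 lies farthest left in the panel of the sides post-hCG, at -2.28.

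The effect of hCG was then compared on each side. On the unruptured side 4 of 10 members rose post-hCG (Col4a1, Col4a2, Lamb1 and Lamb2) and none fell, where 53.1% of 9320 genes tested passed 25.4% higher and 27.7% lower. With a background this high the count of members says little of them. The median log2FC (post-hCG minus no hCG) over the members was 0.38, against -0.03 over all genes tested.

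Lamb1 and both collagen genes gained most. Lamb1 went from a median of 18.9 TPM to 36.5 TPM, and all 12 post-hCG libraries were above the median without hCG (log2FC 0.89 ± 0.14, FDR = 3e-06). Col4a2 went from a median of 36.5 TPM to 64.7 TPM (log2FC 0.89 ± 0.20, FDR = 0.000434) and Col4a1 from 119.5 TPM to 174 TPM (log2FC 0.79 ± 0.22, FDR = 0.0032), which did not pass with all 4 groups in one fit (FDR = 0.0531). Lamb2 rose from a median of 6.84 TPM to 12.5 TPM (log2FC 0.53 ± 0.14, FDR = 0.00175), but did not pass with library totals (log2FC 0.31, FDR = 0.0683), a scaling that lowered the median of all genes to -0.25.

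The other members did not pass on the unruptured side. Sparc had a log2FC of 0.30 ± 0.14 (FDR = 0.0595), but passed with DESeq2 (adjusted p = 0.0415), with limma on log2(TPM + 1) (0.44, adjusted p = 0.0178) and with all 4 groups in one fit (FDR = 0.04). Hspg2 had a log2FC of 0.38 ± 0.17 (FDR = 0.066). Nid2 (0.38 ± 0.28), Lamc1 (0.22 ± 0.13), Nid1 (0.05 ± 0.24) and Lama1 (-0.10 ± 0.17) were within 2 SEs of 0, and with library totals the values of Nid1 and Lamc1 were -0.15 and -0.01. Nid1 had similar ranges in both media, from 2.3 to 20.7 TPM without hCG and from 2.81 to 22 TPM with it.

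On the ruptured side, 8 of 9 members tested passed. Col4a1, Col4a2, Lamb1, Lamb2, Lamc1, Hspg2 and Sparc rose, Nid1 fell, and Lama1 did not pass (log2FC 0.07 ± 0.15). Of 8531 genes tested, 60.1% passed, 29.7% higher and 30.4% lower. The median log2FC over the members tested was 0.92, against 0.00 over all genes tested. With library totals, which lowered the median of all genes to -0.33, Hspg2 no longer passed (log2FC 0.33, FDR = 0.125) and Lama1 stood at -0.25.

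Sparc separated the media fully by counts. Its median was 925 TPM without hCG and 1619 TPM with it, and on TMM-scaled CPM all 13 post-hCG libraries exceeded the highest library without hCG, which 6.63% of 10013 genes showed. The log2FC was 0.99 ± 0.13 (FDR = 7.83e-08), while the TPM ranges, 494 to 1234 and 1175 to 1974, overlapped. Col4a2 (log2FC 1.45 ± 0.35, FDR = 0.000683) and Col4a1 (log2FC 1.40 ± 0.43, FDR = 0.00559) had the largest fold changes, from medians of 14.6 to 39.6 TPM and of 27.5 to 117 TPM. All 13 post-hCG libraries were above the median without hCG for both genes.

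The log2FCs of Lamb1, Lamb2, Lamc1 and Hspg2 were smaller than those of the collagen pair, a difference in size that was not tested. Lamb1 went from a median of 10.4 TPM to 20.1 TPM (log2FC 1.11 ± 0.19, FDR = 9.52e-06) and Hspg2 from 11.4 to 18.3 TPM (log2FC 0.65 ± 0.17, FDR = 0.00128). Lamc1 had a log2FC of 0.92 ± 0.16 by counts (FDR = 1.1e-05) and Lamb2 of 0.66 ± 0.14 (FDR = 0.000153). In TPM, limma gave 0.27 for Lamc1 and 0.38 for Lamb2, and neither passed. Their medians were 2.51 and 2.99 TPM for Lamc1 and 11.7 and 13.2 TPM for Lamb2.

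Of the 9 members tested, Nid1 alone fell with hCG on the ruptured side, from a median of 2.19 TPM to 1.65 TPM and from 0.52 to 13.3 TPM down to 0.46 to 4.2 TPM. Its log2FC was -0.93 ± 0.37 (FDR = 0.0319). Without both libraries with oocyte markers it was -0.83 (FDR = 0.0571), and on log2(TPM + 1) with limma -0.35 (adjusted p = 0.276), so the call was not stable. The theca and stroma sum fell over the same groups from a median of 41.5 TPM to 6.74 TPM, and its part in the result was not tested. Nid2 was under the filter on low counts here and had means of 0.618 and 0.322 TPM.

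Whether the sides differed by another amount with hCG than without was tested as an interaction. Of 10013 genes, 8.91% passed, 4.25% with a positive and 4.65% with a negative value. Of the 10 members, 2 passed, both positive. For Sparc the interaction was 0.69 ± 0.18 (FDR = 0.0118), with side differences of -0.84 without hCG and -0.16 post-hCG. For Lamc1 it was 0.70 ± 0.21 (FDR = 0.0283), with side differences of -0.35 and 0.35. In TPM neither passed. Nid1 had the lowest value, -0.98 ± 0.45 (FDR = 0.172), and Col4a1 (0.62 ± 0.50), Col4a2 (0.56 ± 0.42), Hspg2 (0.26 ± 0.25), Lamb1 (0.22 ± 0.25), Lama1 (0.16 ± 0.23), Lamb2 (0.13 ± 0.20) and Nid2 (-0.63 ± 0.52) did not pass. For Col4a1 and Col4a2 the confidence intervals ran from -0.37 to 1.60 and from -0.26 to 1.39.

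Related members were compared within each library. The log2 ratio of (TPM + 1), in which the added 1 weighs more on low genes, of Lamb1 over Lamb2 had a mean of 1.18 ± 0.34 in the putative unruptured and of -0.14 ± 0.68 in the putative ruptured libraries (SD, n = 15 and 14). In 13 of 14 putative ruptured libraries the ratio was under the median of the other side. The difference was -1.31 (2-sided permutation test, p = 1e-05, the smallest that 100000 resamples can give, adjusted p = 0.00012 over 12 tests). Post-hCG the mean was 1.26 ± 0.72 in the unruptured and 0.42 ± 0.55 in the ruptured libraries (n = 12 and 13), a difference of -0.84 (permutation test, adjusted p = 0.00722). On counts the differences were -1.31 and -1.14 and both passed.

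The collagen ratio moved less. Col4a1 over Col4a2 had mean log2 ratios of 1.59 ± 0.26 (putative unruptured), 1.03 ± 0.54 (putative ruptured), 1.44 ± 0.22 (unruptured) and 1.43 ± 0.25 (ruptured). Without hCG the sides differed by -0.55 (permutation test, adjusted p = 0.0052), and post-hCG by -0.01 (adjusted p = 0.941). The ruptured side differed between media by 0.40 (permutation test, adjusted p = 0.0494), which passed under none of the other settings tried. For Nid1 over Nid2, differences between the sides of -0.85 and -0.94 (permutation test, adjusted p = 0.00675 and 0.00228) were -0.52 and -0.37 with a pseudocount of 0.1 and -0.19 and -0.57 on counts, and passed in neither.

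**Figure D3:**
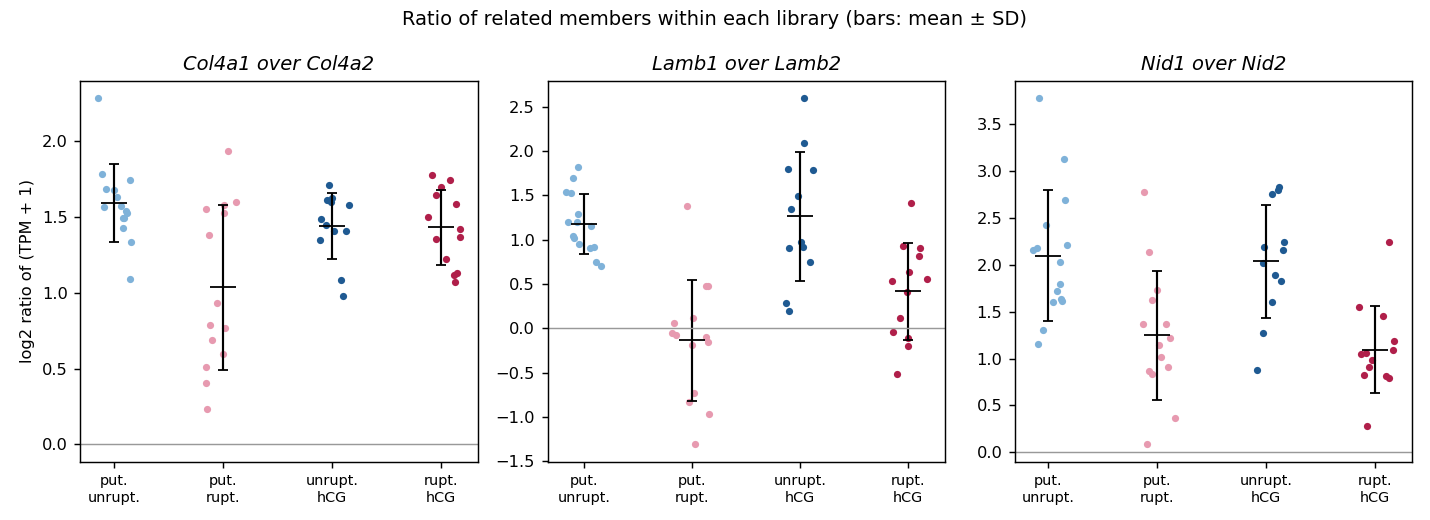
Log2 ratio of (TPM + 1) on the vertical axis for Col4a1 over Col4a2, Lamb1 over Lamb2 and Nid1 over Nid2 in the 4 groups on the horizontal axis (n = 15, 14, 12 and 13). Points are libraries, bars are the mean ± SD and the grey line marks 0, equal levels. The Lamb1 ratio has means of 1.18 and 1.26 on both unruptured sides and of -0.14 and 0.42 on both ruptured sides.

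Within groups, the collagen pair rose and fell together from library to library. The correlation of log2 CPM of Col4a1 and Col4a2 was r = 0.96, 0.99, 0.96 and 0.94 in the order putative unruptured, putative ruptured, unruptured and ruptured (rho = 0.95, 0.99, 0.94 and 0.96, permutation test, adjusted p of at most 0.000144 for r over 36 tests). Without the 2 libraries farthest from the median it was 0.88, 0.99, 0.94 and 0.90. Of the 9 pairs tested, 7, 5, 3 and 2 passed in these groups. No share over pairs of other genes is given here to set beside these counts.

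Other members of the membrane were less tied to each other. Nid1 and Nid2 had r = 0.92 on the putative ruptured side (rho = 0.88, r = 0.88 without 2 libraries, permutation test, adjusted p = 0.000144) and r = 0.22 on the ruptured side (rho = 0.30, adjusted p = 0.619). Hspg2 and Col4a1 had r = 0.86 on the putative ruptured side (rho = 0.87, r = 0.88 without 2 libraries, permutation test, adjusted p = 0.00066) and 0.27 on the ruptured side (rho = 0.31, adjusted p = 0.522). Lamb1 and Lamb2 ran in opposite directions post-hCG, with r = -0.73 (unruptured) and -0.72 (ruptured) (rho = -0.69 and -0.61, permutation test, adjusted p = 0.0192 and 0.0153, rho adjusted p = 0.0541 and 0.0697). Without 2 libraries these were -0.38 and -0.65, so the first rests on those libraries. In TPM they were -0.13 and 0.25 and neither passed. In the putative unruptured group the same pair had r = 0.58 (rho = 0.40, r = 0.12 without 2 libraries, permutation test, adjusted p = 0.0407), the opposite sign.

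The members were also set against the summed CPM of the 12 theca and stroma markers, within each group. Of the 10 members, 6 passed in the putative unruptured group (median r of all 10, 0.70), 7 in the putative ruptured (0.85), 4 in the unruptured (0.56) and 1 in the ruptured group (0.16). The share of all genes that would pass is not given here, so these counts cannot set the members apart from other genes. Nid1 followed the sum most closely, with r = 0.93, 0.98, 0.91 and 0.72 in the order putative unruptured, putative ruptured, unruptured and ruptured (rho = 0.81, 0.97, 0.77 and 0.63, permutation test, adjusted p = 6.67e-05, 6.67e-05, 0.000622 and 0.0157 over 40 tests). Without 2 libraries r was 0.82, 0.98, 0.86 and 0.26, so on the ruptured side it rests on those libraries. Without the collagen genes of the marker list, Nid1 passed in the first 3 of these groups, at r = 0.69, 0.94 and 0.89.

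Col4a1 passed against the same sum in 3 of the 4 groups. It had r = 0.90, 0.94, 0.80 and 0.14 in the same order (rho = 0.88, 0.90, 0.85 and 0.26, permutation test, adjusted p = 6.67e-05, 6.67e-05, 0.00686 and 0.742), and without 2 libraries 0.89, 0.91, 0.84 and -0.12. Without the collagen genes of the list r was 0.68, 0.92, 0.62 and 0.18, and the call in the unruptured group was lost (permutation test, adjusted p = 0.0836). On the ruptured side the sum had a median of 6.74 TPM and Col4a1 a median of 117 TPM. On the putative unruptured side these medians were 538 and 119.5 TPM, but the 2 groups differ in both side and medium. Within a medium the Col4a1 median was lower on the ruptured side, at 27.5 against 119.5 TPM without hCG and 117 against 174 TPM post-hCG. Lama1 passed in no group (r of -0.35 to 0.42), and Lamb2 passed on the putative unruptured side alone (r = 0.63, rho = 0.71, r = 0.68 without 2 libraries, permutation test, adjusted p = 0.0247), where it did not pass without the collagen genes of the list (r = 0.54). How far theca content sets the differences between the sides was not tested.

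**Figure D4:**
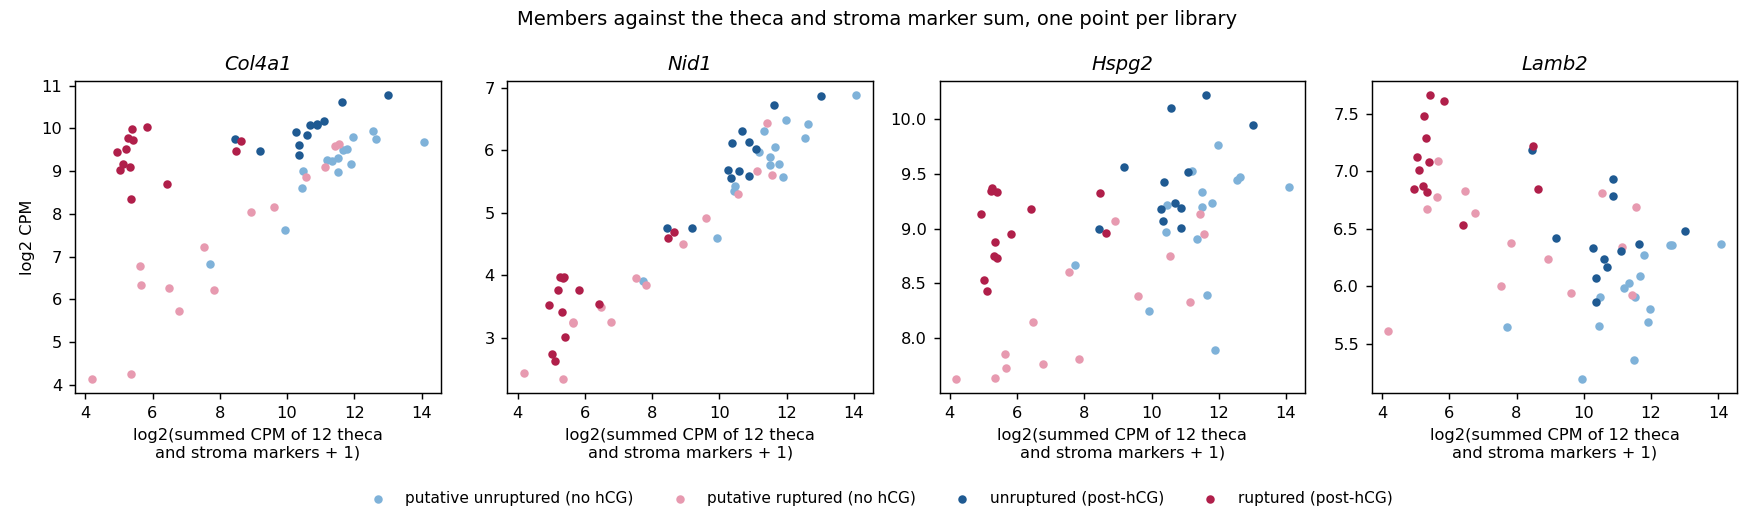
Log2 CPM of Col4a1, Nid1, Hspg2 and Lamb2 on the vertical axes against the log2 of the summed CPM of 12 theca and stroma markers plus 1 on the horizontal axes, 1 point per library, coloured by group. Nid1 rises along the horizontal axis over all 4 groups. Most ruptured (post-hCG) libraries lie at the left, with a median Col4a1 of 117 TPM against 174 TPM in the unruptured (post-hCG) libraries. The r within the ruptured group is 0.14 for Col4a1.

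With group means removed, the genes most like each member over the 54 libraries were found among 10013. Col4a1 and Col4a2 were nearest to each other (r = 0.97), then to Tgm2 (0.88 and 0.87), a crosslinking enzyme, and to Col5a1 (0.87 and 0.86), a fibrillar collagen. Nid1 was nearest to Col3a1 and Col1a2 (both 0.91) and Col6a2 (0.89), and Nid2 to Col6a2 (0.81), Col5a1 (0.79) and Sparcl1 (0.77), of which Col3a1 and Col1a2 are on the theca and stroma list. Lamb1 was nearest to Fn1 (0.78), which encodes fibronectin, Col15a1 (0.76) and Bgn (0.74), and Sparc to Pcolce (0.88), an enhancer of collagen processing, Hs6st2 (0.74) and Lipg (0.73). Hspg2 stood nearest to Nisch (0.74), Ehd2 (0.72) and C1s1 (0.72), Lamb2 to Slc4a2 (0.72), Srebf2 (0.67) and Ncln (0.64), and Lamc1 to Cltc (0.72), Col5a2 (0.70) and Arhgap32 (0.68). Lama1 was nearest to Pla1a (0.60), Prkx (0.53) and RP23-44G15.5 (0.52). These values describe the libraries and share their depth and scaling.

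Other basement membrane components gave a mixed picture. Of the 24 on the list, 10 could be tested between the sides without hCG, and 4 were lower on the putative ruptured side, where 17.8% of all genes passed. The fall was largest for Tinagl1, a matrix protein that binds laminin, at 38.4 ± 15.1 TPM and 9.86 ± 6.65 TPM (log2FC -1.94 ± 0.29, FDR = 1.57e-05), and next for the laminin alpha chains Lama5 (log2FC -1.01 ± 0.23, FDR = 0.00253) and Lama4 (-0.74 ± 0.25, FDR = 0.0353). Each of these alpha chains lost its call under 3 of 11 alternatives, and Lama5 came down to -0.44 with limma on log2(TPM + 1). Post-hCG, where 21.4% of all genes passed, 2 of 9 were lower on the ruptured side, Col15a1 (log2FC -2.60 ± 0.31, FDR = 2.72e-07) and Lama4 (-0.51 ± 0.12, FDR = 0.00291), and 1 was higher, Col18a1 (0.97 ± 0.20, FDR = 0.000532), whose product yields endostatin. The alpha chain Lama4 had a mean of 1.37 to 3.71 TPM by group and Lama2 of 0 to 0.847 TPM, while the collagen chains Col4a3 and Col4a4 had group means of at most 0.329 TPM.

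With the medium, some of these genes had larger log2FCs than any of the 10 members. Tinagl1 rose from 38.4 to 316 TPM on the unruptured side (log2FC 2.99 ± 0.18, FDR = 2.14e-15) and from 9.86 to 250 TPM on the ruptured side (4.82 ± 0.30, FDR = 2.78e-15), with an interaction of 1.83 ± 0.33 (FDR = 0.000204). Smoc2, a Sparc-related matrix protein, fell from 20.6 to 1.1 TPM (log2FC -4.26 ± 0.30, FDR = 2.24e-13) and from 12.9 to 0.4 TPM (-4.79 ± 0.22, FDR = 1.25e-18). Col18a1 rose from 3.46 to 19.2 TPM on the ruptured side (2.75 ± 0.26, FDR = 5.68e-11) and also rose on the unruptured side (1.29 ± 0.20, FDR = 3.07e-06). Its interaction was 1.46 ± 0.34 (FDR = 0.00337). Fras1, a component of epithelial basement membranes, rose on the unruptured side from 0.5 to 2.65 TPM (2.96 ± 0.21, FDR = 1.24e-13). It rose on the ruptured side too (2.47 ± 0.21, FDR = 7.73e-12), and its interaction did not pass (-0.49 ± 0.32, FDR = 0.384). In all, 4 of 11 rose and 5 fell on the unruptured side, and 5 of 9 rose and 2 fell on the ruptured side, where 53.1% and 60.1% of all genes tested passed.

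Enzymes that fold and crosslink collagen chains differed between the sides in both directions. Without hCG 3 of 14 were lower and 2 higher on the putative ruptured side, beside 17.8% of all genes passing, led by Plod2, a lysyl hydroxylase, which was higher (110.1 and 225 TPM, log2FC 1.10 ± 0.17, FDR = 2.72e-05), with P4ha2, a prolyl hydroxylase subunit, lower (-0.80 ± 0.27, FDR = 0.0319). P4ha2 lost this call under 5 of 11 alternatives and came down to -0.53. P3h1, a prolyl 3-hydroxylase, was also higher (78.5 and 124 TPM, 0.63 ± 0.09, FDR = 6.65e-06). P4hb, the other subunit of prolyl 4-hydroxylase, had the highest mean of the list, 692 to 925 TPM by group. Post-hCG 6 were lower on the ruptured side and 1 higher, beside 21.4% of all genes. P4ha2 (22.7 and 7.04 TPM, log2FC -1.42 ± 0.17, FDR = 4.2e-07), Plod1 (28.5 and 9.26 TPM, -1.33 ± 0.15, FDR = 1.56e-07) and P4ha1 (94.2 and 49.8 TPM, -0.66 ± 0.12, FDR = 0.000193) led the 6. Pxdn, the peroxidase that forms sulfilimine crosslinks in type IV collagen, fell with hCG on both sides (log2FC -0.89 ± 0.20 and -1.13 ± 0.20, FDR = 0.000382 and 1.28e-05), while P4ha2 rose on both (1.58 ± 0.23 and 0.96 ± 0.21). Plod2 rose on the unruptured side (0.72 ± 0.16, FDR = 0.000253) and Plod1 fell on the ruptured side (-0.90 ± 0.15, FDR = 5.79e-06).

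Receptors of the basement membrane made up a list of 13 genes. Sdc1, a heparan sulfate proteoglycan, rose from 94.4 to 1688 TPM on the unruptured side and from 166 to 2249 TPM on the ruptured side (log2FC 4.12 ± 0.28 and 4.01 ± 0.27, FDR = 6.83e-14 and 2.07e-14). Bcam, a receptor for laminin alpha 5, rose from 6.53 to 31.8 TPM and from 3.83 to 33.8 TPM (2.37 ± 0.17 and 3.31 ± 0.17), whereas the laminin-binding integrin chain Itga6 fell from 8.71 to 2.33 TPM and from 6.37 to 0.66 TPM (-1.85 ± 0.17 and -3.11 ± 0.23). Between the sides without hCG, Itga2 (3.64 and 9.03 TPM, log2FC 1.46 ± 0.18, FDR = 1.12e-06) and Dag1, which encodes dystroglycan (133 and 262 TPM, 1.03 ± 0.20, FDR = 0.000465), were higher on the putative ruptured side, and Ddr2, a collagen receptor (-1.0 ± 0.25, FDR = 0.00483), was lower. Post-hCG, Ddr2 (-1.98 ± 0.27, FDR = 2.77e-06) and Itga6 (-1.67 ± 0.21, FDR = 7.83e-07) were lower on the ruptured side and Sdc1 was higher (0.67 ± 0.14, FDR = 0.000661). Without hCG 2 of 11 receptors tested were higher and 2 lower, and post-hCG 3 were higher and 3 lower, beside 17.8% and 21.4% of all genes.

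**Figure D5:**
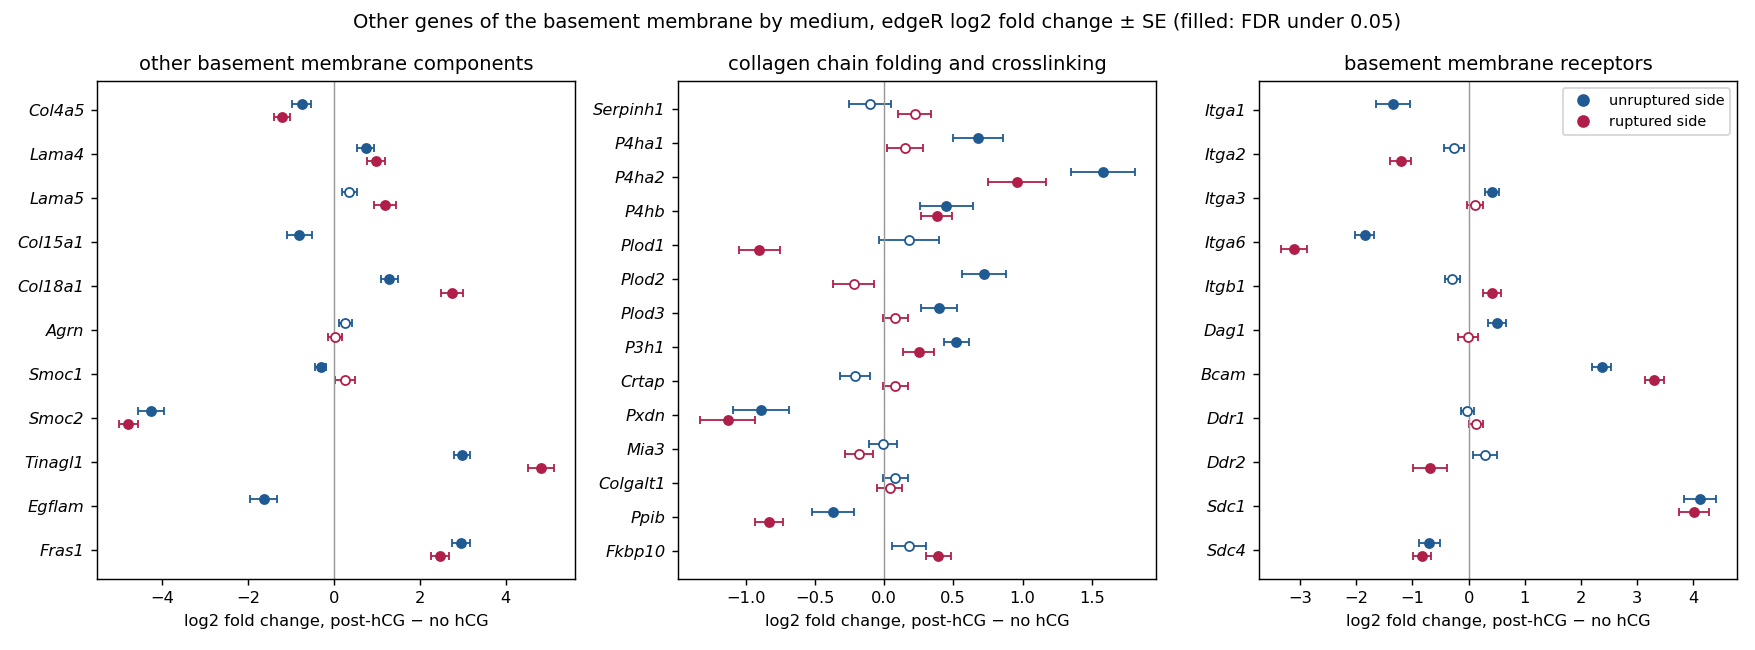
Log2 fold change ± SE from edgeR, post-hCG minus no hCG, on the horizontal axis for the tested genes of 3 lists (other basement membrane components, collagen chain folding and crosslinking, basement membrane receptors), on the unruptured side (blue) and the ruptured side (red). Filled points have an FDR under 0.05. Tinagl1 reaches 2.99 and 4.82, Sdc1 4.12 and 4.01, and Smoc2 -4.26 and -4.79.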

How the data were processed

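Per the study's methods, Smart-Seq2 cDNA was sequenced from both ends, HISAT2 placed the reads on GRCm38, and ComBat-seq was used to correct counts for batches. The deposited tables hold estimated counts, 72.2% of the non-zero ones whole, and TPM values, which the authors scaled for the length of transcripts and the library. The counting program, its annotation and whether the tables precede the batch correction are not given in the sources used here. All columns were matched to libraries, with 0 left over.

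Estimated counts were rounded for the quasi-likelihood F-test of edgeR 4.0.16 (R 4.3.3) after TMM scaling and its expression filter (count of 10, total of 15) on the groups of each comparison, and the interaction on all 4. The SE is the log2FC over the root of F. On simulated counts, edgeR found 95.7%, 97%, 91%, 97% and 71.1% of genes changed 2-fold in the comparisons of the sides without hCG (9063 genes), the sides post-hCG (8585), hCG on the unruptured side (9320), hCG on the ruptured side (8531) and the interaction (10013). Correlations used log2 CPM with a prior count of 2, and ratios and correlations used 100000 permutations (Python 3.11.15, numpy 2.4.6). Alternatives were DESeq2 1.42.0, limma 3.58.1 on log2(TPM + 1) or log2(TPM + 0.1), other scalings and filters, thinned counts and a replicate block. Fits by plate row, without single libraries and without both libraries with oocyte markers were chosen after the data had been seen. Counts limit precision by counting error, and Smart-Seq2 reads carry no molecular identifiers.

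Members, lists and alternatives were chosen with earlier results of these data known. Named were all 10 members, the 3 largest changes per list and comparison past an FDR of 0.05, the most abundant gene of each list, and the 3 genes nearest to each member; for the marker lists the text gives sums and counts instead of all these names. Others were named after their values were seen (Lama2, Col4a3, Col4a4, Cldn5, Gli1, Cyp17a1, Amh, Ptch1, Nr5a2). Positions came from GENCODE vM21. Lists for granulosa, cumulus, immune and surface epithelium cells gave medians of 1.71, 1.71, -2.87 and -0.16 (log2FC) over their 7, 3, 1 and 2 tested genes between the sides without hCG.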

Additional observations from a re-analysis of the deposited data

Results flagged for a closer look

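For 2 of 10 members the difference between the sides changed with the medium by a test of that difference, which 8.91% of 10013 genes passed. The interaction of side and hCG was 0.69 for Sparc and 0.70 for Lamc1 on the log2 scale (edgeR, FDR = 0.0118 and 0.0283). The range over the alternatives ran from 0.44 to 0.73 for Sparc and from 0.15 to 0.79 for Lamc1. On log2(TPM + 1) with limma neither passed (adjusted p = 0.176 and 0.768), and the count per TPM of Lamc1 differed up to 4.06-fold between libraries. In edgeR, Lamc1 also did not pass with library totals (0.59, FDR = 0.115) or with the replicate block (0.70, FDR = 0.0527).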

How the results depend on the processing

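Counts of members called were within 1.5 times the main count except in these fits. Between the sides without hCG, 0 of 10 passed within plate row G, against 7, and refits without single libraries gave 5 to 8. Between the sides post-hCG, 4 passed with all 4 groups in one fit and 3 within plate row C, against 8, and refits gave 7 to 8. For hCG on the ruptured side 5 passed with limma on TPM at either pseudocount, against 8, and for the interaction 1 passed with library totals, 1 with the replicate block and 0 with limma at either pseudocount, against 2. For the ratios 3 of 12 passed with a pseudocount of 0.1, against 6, and for the theca and stroma sum 10 of 40 passed without the collagen genes of the list, against 18. The causes were not tested. With the replicate block 7, 6, 4 and 7 members passed in the comparisons of sides and media, and 5 of the 12 ratios. Under that block Col4a1 passed between the sides without hCG (-1.85, FDR = 0.0198), and Nid2 (FDR = 0.0654), Lama1 and Lamc1 between the sides post-hCG (FDR = 0.0582 and 0.0798), Nid1 with hCG on the ruptured side (-0.68, FDR = 0.122), Lamc1 in the interaction and the ruptured collagen ratio did not. The values gave no sign that replicate numbers pair libraries: the correlation of same-numbered deviations was over 0.1 in 1 to 3 of the 12 to 14 pairs of a comparison, and 1 to 3 libraries correlated best with their own number.

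Some values changed sign. Of these, Hspg2 between the sides and Lamb1 with Lamb2 in the ruptured group had passed before, and Sparc-Col4a1 in the ruptured group passed after. Between the sides, Lamc1 stood at 0.31 in plate row G and Hspg2 at 0.02 in row C. For hCG on the unruptured side Nid1 stood at -0.15 with library totals, -0.04 with the replicate block and -0.01 without both libraries with oocyte markers, Lamc1 at -0.01 with library totals and Lama1 at 0.01 with limma and a pseudocount of 0.1. On the ruptured side Lama1 stood at -0.25 with library totals and at -0.08 and -0.11 with limma. In the interaction limma gave -0.07 and -0.12 for Lama1 and -0.44 and -0.49 for Lamb2. The Col4a1 over Col4a2 ratio post-hCG differed by 0.00 with a pseudocount of 0.1. Correlations that changed sign were those with the theca and stroma sum in TPM for Lamb2 (0.05) and Nid2 (0.03) on the ruptured side and, without its collagen genes, for Hspg2 (-0.05 and -0.13, putative unruptured and ruptured). Between members they were, in TPM, Lamb2 with Lamc1 (0.41, -0.07 and 0.16 on the putative ruptured, unruptured and ruptured sides), Lamb1 with Lamb2 (0.32 and 0.25, putative ruptured and ruptured), Nid1 with Lamc1 (0.22 and -0.17, unruptured and ruptured) and Sparc-Col4a1 (0.64, ruptured). With library totals they were Lama1 with Lamc1 (0.12, ruptured), Lamb2 with Lamc1 (0.18 and 0.13, putative ruptured and ruptured), Lamb1 with Lamb2 (0.08, putative ruptured) and Sparc with Col4a1 (0.33, ruptured).

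Scaling by library totals moved the median of all genes by up to -0.33, and the calls among all genes on the ruptured side from 2532 higher and 2597 lower to 1376 and 4242. Depth limits Nid2, Lama1 and Lamc1, and simulated 2-fold interactions were found in 71.1% of cases.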
